A study of Mus musculus with 4 samples.

Results

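Fibroblast growth factor (FGF) signalling was followed here through 9 genes in ASZ001, a cell line from a mouse basal cell carcinoma (BCC), with and without c-FOS from an inducible vector. The members are Fgfr1, Fgfr2, Fgfr3 and Fgfr4, which encode the receptor tyrosine kinases, Fgfrl1, which encodes a receptor-like protein with no kinase domain, the ligand genes Fgf1, Fgf2 and Fgf21, and Fgfbp1, which encodes a secreted carrier. They were proposed with earlier results of these data known. Their rows were matched by name, as rows whose gene symbol equals that of a member. Fgfr1op and Fgfr1op2, which encode unrelated proteins, were therefore not taken. All 9 had a row among the 24907 genes of the table. Of these, 7 passed the filter on low counts and were tested among 12791 genes, and Fgfr4 and Fgf2 did not.

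The c-FOS group held 2 RNA-seq libraries from ASZ001 cells with a doxycycline-inducible c-FOS vector, and the control group held 2 libraries from ASZ001 cells with the empty inducible vector. Both kinds of cell received doxycycline, and no library came from c-FOS cells without it, so an effect of induction and any other difference between the kinds of cell cannot be told apart. The labels do not say whether each kind of cell is a clone or a pool, nor that the numbered libraries came from separate cultures. The p-values then reflect the scatter among these 4 libraries alone, and that scatter may be technical. By its title, the series concerns how basal cell carcinoma turns into squamous cell carcinoma.

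FGFs are secreted or intracellular proteins, and the secreted ones bind FGF receptors together with heparan sulfate or a klotho protein. Receptor activation runs through the adaptor FRS2 and the RAS to ERK kinase cascade and induces feedback inhibitors such as Sprouty proteins. In skin, epithelial cells mainly make the IIIb splice forms of Fgfr2 and Fgfr3 and mesenchymal cells the IIIc forms of Fgfr1 and Fgfr2, and ligands made in one layer often act on the other.

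Total deposited counts were 29200592 and 32465409 in the c-FOS libraries and 28405433 and 29822437.5 in the control libraries. Fos, the gene in the vector, was at 296.8 and 313.4 CPM, that is counts scaled to an effective library size of 1e+06, in the c-FOS libraries, against 0.404 and 0.351 CPM in the control libraries, which fits the labels. The summed level of 10 basal keratinocyte markers was 16095 to 16634 CPM in c-FOS cells and 32403 to 32774 CPM in control cells, and all 10 were high enough to be tested. By the test described next, 8 of them fell and 1, Epcam, did not pass. Itga6 rose, with 473.4 and 470.5 CPM in the c-FOS libraries and 323.3 and 311.3 CPM in the control libraries. Over all genes, 67.1% of those tested were called at a Benjamini-Hochberg adjusted p of 0.05 by the quasi-likelihood test of edgeR, 33.8% as higher and 33.3% as lower with c-FOS. Against this background, 3 of the 7 tested members rose (Fgfr1, Fgfrl1 and Fgf21) and 4 fell (Fgfr2, Fgfr3, Fgf1 and Fgfbp1). The groups did not overlap for these 7 genes, nor for 83.6% of all genes tested.

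The main receptor transcript differed between the groups. Fgfr1, whose product is the FGF receptor that mesenchymal cells typically carry, had 313.5 and 320.4 CPM in the c-FOS libraries, against 233 and 216.1 CPM in the control libraries. Both c-FOS libraries lay above both control libraries. The mean was 316.9 ± 4.91 CPM with c-FOS and 224.5 ± 11.9 CPM in control (SD, n = 2 each), a rise of 0.50 ± 0.04 (SE) on the log2 scale or 1.41-fold (edgeR adjusted p = 1.21e-07).

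Fgfr2, which encodes the receptor that keratinocytes use for ligands from the dermis, went the other way. It had 143.1 and 135.9 CPM in the c-FOS libraries, against 347.6 and 341 CPM in the control libraries. Every c-FOS value was far below every control value, and the libraries of a group differed little. The mean was 139.5 ± 5.1 CPM with c-FOS and 344.3 ± 4.67 CPM in control (SD, n = 2 each), a fall of 2.47-fold. On the log2 scale Fgfr2 fell by 1.30 ± 0.04 (SE; edgeR adjusted p = 2.37e-12).

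Fgfr3, a receptor gene of differentiating epithelia, fell most of the receptors in log2 fold change, at a lower level. It had 8.32 and 8.8 CPM in the c-FOS libraries and 34.1 and 30.8 CPM in the control libraries. The groups were well apart, and Fgfr3 fell by 1.92 ± 0.09 (SE) on the log2 scale, or 3.77-fold (edgeR adjusted p = 1.51e-10). A share of 6.23% of the genes tested had a larger absolute log2 fold change than Fgfr3, against 11.3% for Fgfr2 and 34.0% for Fgfr1.

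Fgfr4, the receptor of liver and muscle progenitors, had 0 and 0 counts in the c-FOS libraries and 0 and 1 count in the control libraries. It was therefore at or under the floor of 3 counts, which stood at 0.0969 to 0.108 CPM in the c-FOS libraries and 0.0958 to 0.101 CPM in the control libraries, and no fold is given. These floors cover counting error only.

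**Figure D1:**
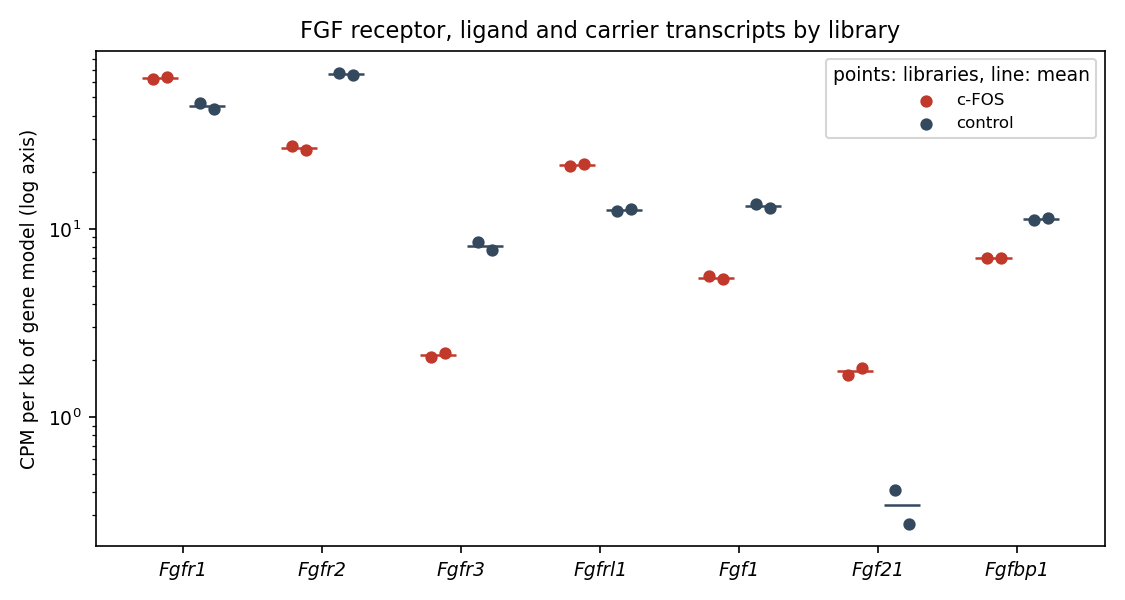
Level of each tested member in each library, as CPM per kilobase of gene model on a log axis, with c-FOS left of control for each gene; points are libraries and lines are group means (n = 2). Fgfr1, Fgfrl1 and Fgf21 are higher and Fgfr2, Fgfr3, Fgf1 and Fgfbp1 lower in the c-FOS libraries; Fgfr4 and Fgf2 are not drawn because their counts were 0 or 1.

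Levels of different genes were compared as CPM per kilobase of the deposited gene model length. On that scale the order of the members in the c-FOS cells was Fgfr1 (63.3 ± 0.982), Fgfr2 (26.9 ± 0.985), Fgfrl1 (21.8 ± 0.348), Fgfbp1 (7 ± 0.0571), Fgf1 (5.5 ± 0.168), Fgfr3 (2.14 ± 0.0842) and Fgf21 (1.75 ± 0.0972; SD, n = 2). In the control cells it was Fgfr2 (66.5 ± 0.901), Fgfr1 (44.9 ± 2.39), Fgf1 (13.2 ± 0.424), Fgfrl1 (12.6 ± 0.195), Fgfbp1 (11.3 ± 0.148), Fgfr3 (8.1 ± 0.585) and Fgf21 (0.341 ± 0.0985; SD, n = 2). In control cells Fgf1 and Fgfrl1 differed by less than the sum of their SDs, and the other neighbours in both orders differed by more. Fgfr1 stood above 91.2% of the genes tested in c-FOS cells and 86.9% in control cells, and Fgfr2 above 75.5% in c-FOS cells and 92.4% in control cells.

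Fgfr1 thus took first place among the receptors in c-FOS cells and Fgfr2 in control cells. Of the summed level of the 4 receptor genes per kilobase, Fgfr1 made up 67.8% and 69.2% in the c-FOS libraries, against 38.1% and 37.0% in the control libraries. Fgfr2 made up 29.9% and 28.4% in the c-FOS libraries and 54.9% and 56.4% in the control libraries, and Fgfr3 made up 2.25% and 2.38% in the c-FOS libraries and 6.97% and 6.58% in the control libraries. The share of Fgfr1 was 31.0 percentage points higher and the share of Fgfr2 26.5 percentage points lower with c-FOS, that is a difference of -26.5 for Fgfr2. The ratio of Fgfr1 to Fgfr2 was 2.27 and 2.44 in the c-FOS libraries, against 0.693 and 0.656 in the control libraries. The groups did not overlap in any of these shares. An exact two-sided permutation test over the libraries gave p = 0.333 for each, which is the smallest value that 2 against 2 libraries allow.

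The sum of the 4 receptor transcripts was lower with c-FOS, at 92.3 and 92.5 CPM per kilobase in the c-FOS libraries and 122.2 and 116.7 CPM per kilobase in the control libraries (exact permutation p = 0.333). The ratio of Fgfr2 to Fgfr3 was 13.3 and 11.9 in the c-FOS libraries, against 7.89 and 8.57 in the control libraries, because Fgfr3 fell further than Fgfr2. In bulk RNA, fewer cells that carry a transcript and less of it per cell cannot be told apart.

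**Figure D2:**
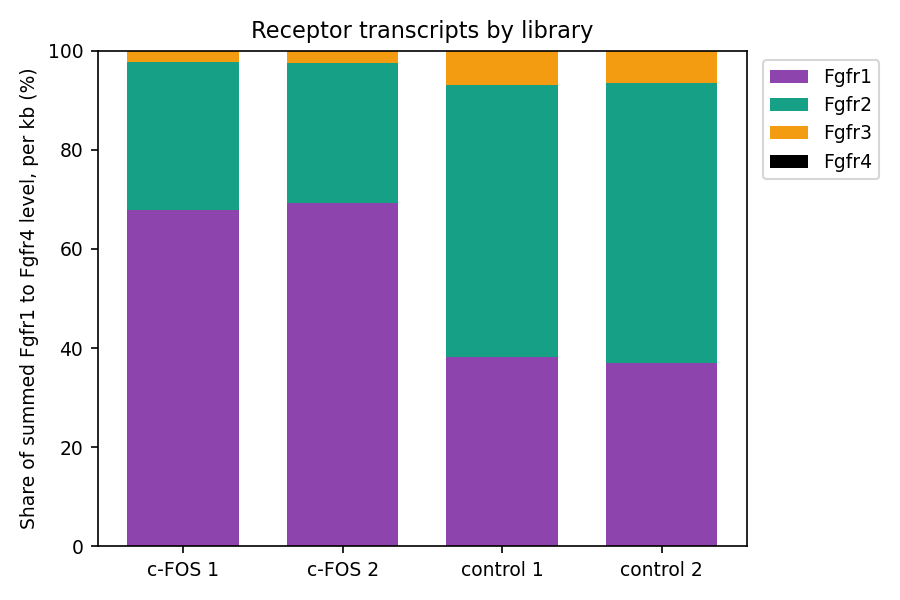
Share of Fgfr1, Fgfr2, Fgfr3 and Fgfr4 in their summed level per kilobase (percent, vertical axis) in each library, c-FOS libraries left of control libraries. Fgfr1 takes 67.8% and 69.2% of the bar in the c-FOS libraries and 38.1% and 37.0% in the control libraries; Fgfr4 is too low to be seen.

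Fgfrl1, whose product binds FGF but lacks the kinase, rose. It had 57 and 58.3 CPM in the c-FOS libraries and 33.1 and 33.8 CPM in the control libraries, with both c-FOS values above both control values. The change was 0.78 ± 0.05 (SE) on the log2 scale, or 1.72-fold (edgeR adjusted p = 9.2e-09). Per kilobase, the ratio of Fgfrl1 to the 4 kinase receptors together was 0.233 and 0.238 in the c-FOS libraries, against 0.102 and 0.109 in the control libraries (exact permutation p = 0.333).

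The start regions of Fgfr2 and Fgfr3, which fell, and of Fgfrl1, which rose, are shown because c-FOS binds DNA as part of the AP-1 dimer and these genes moved in opposite directions. Each run is the RefSeq window (build GRCm38.p6) from 250 bases before to 50 bases after the annotated start, 5′ to 3′ along the gene's strand. For Fgfr3 the first of 2 windows is given. Capitals mark the GC box GGGCGG and the E-box CACGTG on either strand.
Fgfr2, chr7:130266759-130267058, minus strand: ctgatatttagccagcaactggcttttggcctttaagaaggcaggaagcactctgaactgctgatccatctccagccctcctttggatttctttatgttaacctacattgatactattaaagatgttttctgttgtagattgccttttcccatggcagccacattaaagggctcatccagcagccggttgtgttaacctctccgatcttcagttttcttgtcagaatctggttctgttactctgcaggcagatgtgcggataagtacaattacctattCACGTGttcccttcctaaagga
Fgfr3, chr5:33721474-33721773, plus strand: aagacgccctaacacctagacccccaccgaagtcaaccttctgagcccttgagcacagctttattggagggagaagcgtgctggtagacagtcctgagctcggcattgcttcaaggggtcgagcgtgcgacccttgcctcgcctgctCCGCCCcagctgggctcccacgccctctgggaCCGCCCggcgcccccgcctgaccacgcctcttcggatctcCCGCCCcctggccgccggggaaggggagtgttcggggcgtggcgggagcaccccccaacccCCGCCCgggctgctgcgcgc
Fgfrl1, chr5:108693979-108694278, plus strand: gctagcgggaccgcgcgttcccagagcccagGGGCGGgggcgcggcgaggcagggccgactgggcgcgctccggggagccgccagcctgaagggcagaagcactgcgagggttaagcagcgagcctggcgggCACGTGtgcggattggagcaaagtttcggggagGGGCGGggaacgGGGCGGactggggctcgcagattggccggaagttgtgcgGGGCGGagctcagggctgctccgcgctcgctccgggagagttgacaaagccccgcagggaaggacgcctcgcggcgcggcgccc
The AP-1 motif TGANTCA, which reads the same on both strands, had no match in these windows, nor in any of the 8 windows of the 7 members with one. It was present in 7.81% of all 32851 RefSeq windows of this length. Fgfr1 and Fgf1 had no window and are not covered. The related element TGACGTCA also had no match in the 8 windows and was present in 1.79% of all windows. The Fgfr2 window held 4 CG pairs, the Fgfr3 window 26 and the Fgfrl1 window 37, with a median of 7 over all windows. The GC box occurred 4 times in the Fgfr3 window, 4 times in the Fgfrl1 window and not in the Fgfr2 window, and 35.7% of all windows held it. The E-box occurred in the Fgfr2 window, after the annotated start, and in the Fgfrl1 window, before it. It was present in 7.15% of all windows. Motif matches are a description of letters, not of binding, and distant elements are not covered.

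Among the ligands, Fgf1 fell. FGF1 is an acidic FGF without a signal peptide that can activate each FGF receptor. Fgf1 had 21.9 and 21 CPM in the c-FOS libraries, against 52.8 and 50.5 CPM in the control libraries. The c-FOS values were all below the control values, and the fall was 2.40-fold. On the log2 scale Fgf1 fell by 1.27 ± 0.06 (SE; edgeR adjusted p = 3.02e-10). Arhgap26, which overlaps Fgf1 in the RefSeq annotation, had 4.94 and 4.63 CPM in the c-FOS libraries and 3.82 and 4.45 CPM in the control libraries and did not pass (edgeR adjusted p = 0.201). Whether reads were counted by strand is not known from the sources used, so reads of the overlapping stretch cannot be assigned to either gene here.

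Fgf21, an endocrine FGF best known from liver as a fasting and stress hormone, rose the most of the members, from a low level. It had 44 and 53 deposited counts in the c-FOS libraries, against 11.5 and 8 counts in the control libraries, or 1.58 and 1.71 CPM against 0.387 and 0.255 CPM. Both c-FOS libraries were well above both control libraries. The change was 2.32 ± 0.31 (SE) on the log2 scale, or 4.98-fold (edgeR adjusted p = 1.38e-05). The control counts were close to the filter, so Fgf21 entered the test through the c-FOS libraries and its fold is less sharply fixed than those of the receptors. Klb, which encodes the beta-klotho co-receptor that FGF21 requires, had 0 and 0 CPM in the c-FOS libraries and 0 and 0.0319 CPM in the control libraries.

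The Fgf21 start region is shown because the gene is a known target of the stress factor ATF4, which binds C/EBP-ATF elements. Capitals mark, in this order, a GC box on the reverse strand, the C/EBP-ATF element TGATGNAAN on the reverse strand, a second GC box on the reverse strand, an E-box that shares its last base with a forward GC box, and a TATA box.
Fgf21, chr7:45615441-45615740, minus strand: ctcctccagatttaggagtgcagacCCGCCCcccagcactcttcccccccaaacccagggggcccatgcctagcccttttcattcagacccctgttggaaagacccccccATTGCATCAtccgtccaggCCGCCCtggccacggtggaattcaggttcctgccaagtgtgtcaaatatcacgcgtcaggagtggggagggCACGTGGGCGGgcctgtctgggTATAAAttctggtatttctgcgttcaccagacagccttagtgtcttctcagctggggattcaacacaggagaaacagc
The C/EBP-ATF element, read here as ATTGCATCA, began 140 bases before the start, and 3.95% of all windows held one. The TATAAA motif began 28 bases before the start and was present in 13.6% of all windows. Both motifs were chosen after the windows were seen, so these shares are a description only. Of 10 genes of ATF4 and of fasting that were listed beside Fgf21, 8 were tested, of which 5 rose, 2 fell and 1 did not pass. The median of their log2 fold changes was 0.38, against -0.01 over all genes tested, of which 33.8% were called higher and 33.3% lower. Among those that rose, Creb3l3 had the largest log2 fold change (3.08). It had 40 and 34.5 counts in the c-FOS libraries and 6.5 and 2 counts in the control libraries. Creb3l3 thus entered the test through the c-FOS libraries, as Fgf21 did. Chac1, a glutathione-degrading enzyme gene of the ATF4 response, had 48.9 and 45.6 CPM in the c-FOS libraries and 15 and 13.7 CPM in the control libraries, while Ppargc1a, which encodes the metabolic co-activator PGC-1 alpha, had 23.6 and 24.2 CPM with c-FOS, against 77.8 and 76.7 CPM in control. Sesn2, a stress-induced gene that ATF4 also drives, had 13.3 and 13 CPM with c-FOS and 20 and 15.5 CPM in control and fell by 0.43 ± 0.11 on the log2 scale (SE; edgeR adjusted p = 0.00298), and by 0.24 without control replicate 1 (edgeR adjusted p = 0.0285). Asns, the asparagine synthetase gene and another ATF4 target, had 186.8 CPM in each c-FOS library and 192.7 and 190.6 CPM in control and did not pass; with library totals its log2 fold change of -0.17 did (edgeR adjusted p = 0.000728), as did -0.10 with upper-quartile factors (edgeR adjusted p = 0.0277). Atf4 itself had 188.5 and 186.5 CPM with c-FOS and 157.2 and 155.7 CPM in control.

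Fgf2, the basic FGF that fibroblasts and many cultured tumour cells make, was at 0 counts in all 4 libraries. With the deposited gene model of 690 bases, 3 counts would have been 0.140 to 0.156 CPM per kilobase in the c-FOS libraries and 0.139 to 0.146 CPM per kilobase in the control libraries. A difference in Fgf2 was not detectable at this depth. Nudt6, which overlaps Fgf2 in the RefSeq annotation, had 2.91 and 3.31 CPM in the c-FOS libraries and 3.95 and 3.23 CPM in the control libraries.

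Fgfbp1 encodes a carrier that releases FGFs from the matrix and is made by keratinocytes. It had 8.75 and 8.65 CPM in the c-FOS libraries, against 13.9 and 14.1 CPM in the control libraries. The groups were apart by many times the spread within them, and Fgfbp1 fell by 0.69 ± 0.09 (SE) on the log2 scale, or 1.61-fold (edgeR adjusted p = 1.12e-05). Fgfbp3, a related carrier gene, had 2.73 and 2.45 CPM with c-FOS and 3.18 and 2.92 CPM in control and did not pass (edgeR adjusted p = 0.207).

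Of the other 15 secreted FGF genes, 7 had 0 counts in all 4 libraries, and 3 were tested. Fgf5, known as an inhibitor of hair growth, was the most abundant, with 52.8 and 51.9 CPM in the c-FOS libraries and 29.2 and 31.3 CPM in the control libraries, a rise of 0.79 ± 0.06 (SE) on the log2 scale (edgeR adjusted p = 2.41e-08). Fgf9, a ligand gene whose product acts mainly on mesenchymal receptor forms, had 0.485 and 0.533 CPM with c-FOS and 1.26 and 1.76 CPM in control, and fell by 1.52 ± 0.29 (SE). Fgf18, a ligand gene of skeletal and hair follicle development, had 0.665 and 0.694 CPM with c-FOS and 0.437 and 0.271 CPM in control. It passed as higher (0.94 ± 0.36 SE, edgeR adjusted p = 0.0337), but not in DESeq2 (adjusted p = 0.248), with library totals (0.0613) or without c-FOS replicate 1 (0.125), c-FOS replicate 2 (0.166) or control replicate 2 (0.190), within a range of 0.0215 to 0.248 over the alternatives.

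Fgf5 and Fgf1 made up most of the secreted FGF transcripts per kilobase. Fgf5 took 72.5% and 72.5% of the sum over 18 secreted FGF genes in the c-FOS libraries, against 44.5% and 47.5% in the control libraries. Fgf1 took 19.3% and 18.8% in the c-FOS libraries, against 51.5% and 49.0% in the control libraries. Their sum with the other secreted FGFs was 29.1 and 28.7 CPM per kilobase in the c-FOS libraries and 26.3 and 26.4 CPM per kilobase in the control libraries. The leading ligand transcript was thus Fgf5 in both c-FOS libraries and Fgf1 in both control libraries, where the ratio of Fgf5 to Fgf1 was 3.75 and 3.86 with c-FOS and 0.863 and 0.969 in control (exact permutation p = 0.333). The intracellular FGF homologues Fgf11 and Fgf13, which regulate sodium channels, also fell. Fgf13 had 2.05 and 1.63 CPM with c-FOS and 4.41 and 5.03 CPM in control (-1.36 ± 0.17 SE), and Fgf11 had 0.413 and 0.63 CPM with c-FOS and 1.23 and 1.37 CPM in control (-1.26 ± 0.29 SE).

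**Figure D3:**
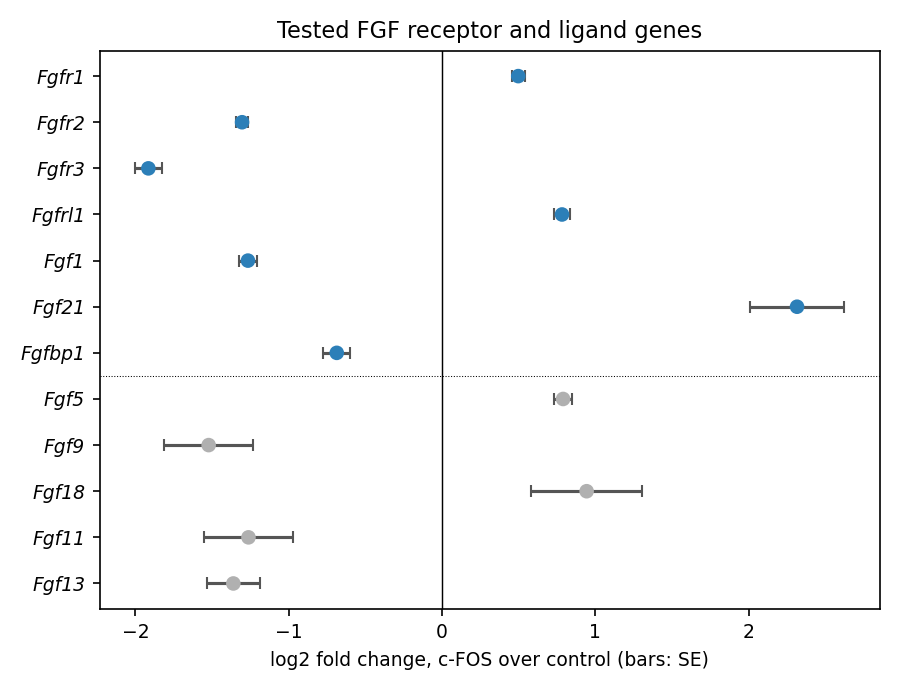
Log2 fold change of c-FOS over control for the 7 tested members (blue, above the dotted line) and the 5 other FGF genes that were tested (grey); bars are SE. Fgf21 (2.32), Fgf18 (0.94), Fgf5 (0.79), Fgfrl1 (0.78) and Fgfr1 (0.50) lie above 0 and the others below it.

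The counts give 1 value per gene, so the IIIb and IIIc splice forms of Fgfr1, Fgfr2 and Fgfr3 cannot be told apart. Of 5 listed regulators of this splicing, 2 rose and 3 fell, beside 33.8% higher and 33.3% lower over all genes tested. Esrp1 and Esrp2, which encode epithelial splicing factors that favour the IIIb exon of Fgfr2, both fell. Esrp1 had 132.6 and 135.5 CPM in the c-FOS libraries and 277.7 and 277.3 CPM in the control libraries (-1.05 ± 0.04 SE), and Esrp2 had 49.5 and 49.4 CPM with c-FOS and 102.9 and 100 CPM in control (-1.04 ± 0.04 SE). Rbfox2, which encodes an RNA-binding splicing factor, had 209.6 and 209.4 CPM with c-FOS and 151.8 and 148.5 CPM in control (0.48 ± 0.04 SE), and Mbnl1, another such gene, rose by 0.37 ± 0.05 (SE).

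Transcripts of the machinery around the receptors were counted from lists. The calls in each of these lists stand beside 33.8% higher and 33.3% lower over all genes tested. Of 8 listed co-receptors and partners, 6 were tested, of which 4 rose, 1 fell and 1 did not pass (median log2 fold change 0.49, against -0.01 over all genes tested). Ncam1, an adhesion molecule that binds FGF receptors, had 256.9 and 249.2 CPM with c-FOS and 62.2 and 63.2 CPM in control, and Flrt2, a membrane partner of FGF receptors, had 1206 and 1185 CPM with c-FOS and 286.6 and 354 CPM in control. Flrt1, which fell, had 1.31 and 1.11 CPM with c-FOS and 2.74 and 2.95 CPM in control (-1.22 ± 0.20 SE). Of 10 heparan sulfate core protein genes, 5 rose, 4 fell and 1 did not pass (median 0.05). Gpc1, which encodes glypican-1, had 2562 and 2672 CPM with c-FOS and 671 and 638.1 CPM in control. Gpc4 had 90.2 and 86.2 CPM with c-FOS and 168.1 and 182.1 CPM in control.

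Of 13 genes of heparan sulfate synthesis and editing, 8 rose, 3 fell and 2 did not pass (median 0.37). The sulfatase genes Sulf1 and Sulf2, whose products remove 6-O-sulfate groups from heparan sulfate outside the cell, moved in opposite directions. Sulf1 had 687.3 and 672 CPM with c-FOS and 161.9 and 171.1 CPM in control (2.03 ± 0.04 SE), and Sulf2 had 234.3 and 238.2 CPM with c-FOS and 527.5 and 472.3 CPM in control (-1.08 ± 0.05 SE). On that list, Hpse passed at a low level but not in DESeq2 (adjusted p = 0.185), without c-FOS replicate 2 (0.461) or without control replicate 2 (0.0841), within a range of 0.0122 to 0.461.

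Of 15 receptor adaptors and enzymes, 11 rose, 2 fell and 2 did not pass, mostly by small amounts (median 0.23). Gab2, a docking protein gene, had 39.2 and 37.2 CPM with c-FOS and 15.2 and 17.9 CPM in control, and the adaptor gene Grb2 had 346.1 and 338.2 CPM with c-FOS and 245.9 and 245.1 CPM in control. The 2 that fell were Gab1 (-0.25) and Cblb (-0.32). Of 15 genes of the RAS, RAF, MEK, ERK, PI3K and AKT steps, 6 rose, 3 fell and 6 did not pass (median 0.07). Map2k1, which encodes the kinase MEK1, rose by 0.58 ± 0.04 (SE) and Hras fell by 0.58 ± 0.04 (SE) on the log2 scale. Akt2 (-0.21) did not pass without c-FOS replicate 1 (edgeR adjusted p = 0.0525, the highest over its alternatives, with a lowest of 4.96e-06).

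Feedback and target genes of FGF and ERK signalling were mostly higher. Of 17 listed genes, 15 were tested, and 13 rose, none fell and 2 did not pass. The median of their log2 fold changes was 0.57, against -0.01 over all genes tested, of which 33.8% were called higher and 33.3% lower. This list was chosen with earlier results of these data known. Dusp4, which encodes a phosphatase of ERK in the nucleus, had 38.8 and 41.5 CPM in the c-FOS libraries, against 0.723 and 0.766 CPM in the control libraries. Dusp5, a related phosphatase gene, had 6.51 and 6.04 CPM with c-FOS and 0.74 and 0.639 CPM in control. The ETS factor genes Etv4 and Etv5, the inhibitor gene Spry2 and the ERK phosphatase gene Dusp6, named after their values were seen because they are common readouts of FGF signalling, changed less. Etv5 had 1.58 and 1.89 CPM with c-FOS and 0.504 and 0.623 CPM in control, and Etv4 had 4.8 and 5.29 CPM with c-FOS and 2.77 and 2.97 CPM in control. Spry2 had 7.67 and 7.73 CPM with c-FOS and 4.64 and 4.36 CPM in control, and Dusp6 had 11.7 and 12.4 CPM with c-FOS and 8.22 and 7.98 CPM in control. On the same list, Egr1 had 11.5 and 14.2 CPM with c-FOS and 12.3 and 13.1 CPM in control and did not pass (edgeR adjusted p = 0.907). Etv1 and Spry4 had 0 or 1 count in each library and were not tested. These genes respond to many inputs to ERK, and no measure of receptor activity was made.

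**Figure D4:**
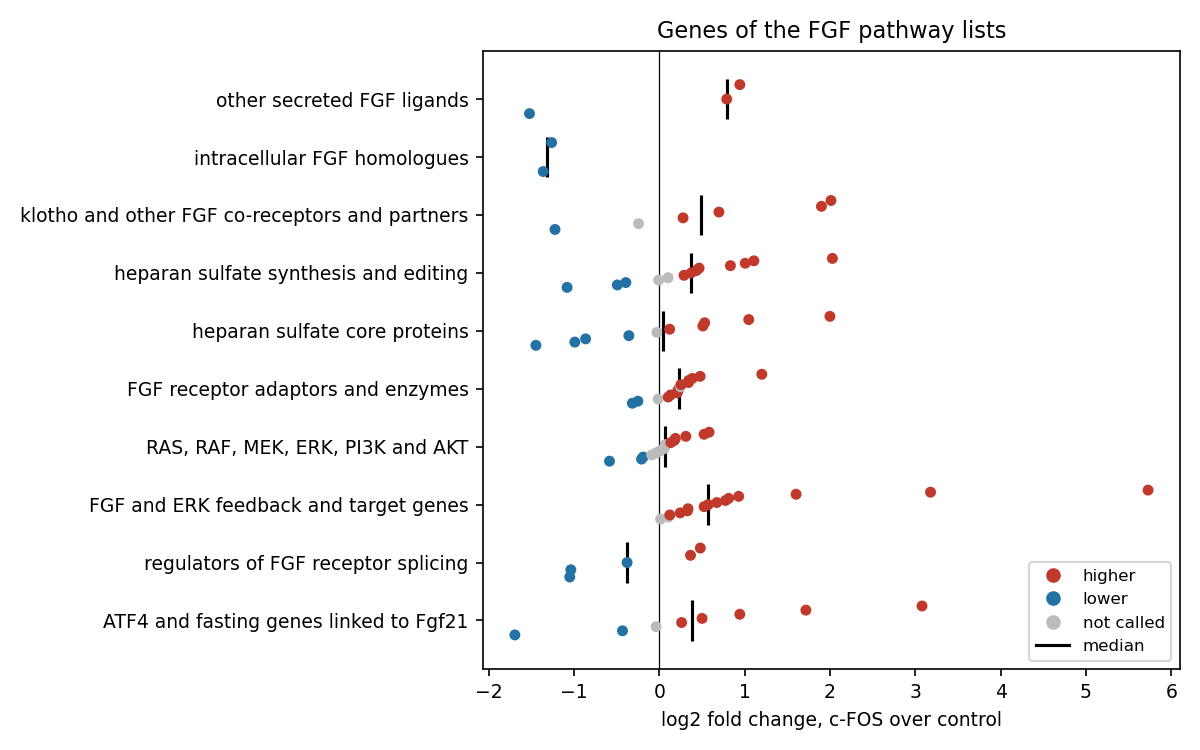
Log2 fold change of c-FOS over control for each tested gene of 10 lists around FGF signalling (points; red higher, blue lower, grey not called at an adjusted p of 0.05) with the list median (black line). The feedback and target list has no gene called lower, and Dusp4 lies farthest to the right at 5.73.

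Markers of other cell types were read beside these changes. Their calls stand beside 33.8% higher and 33.3% lower over all genes tested. The summed level of 10 fibroblast markers was 134.6 and 136.6 CPM in the c-FOS libraries, against 16.1 and 14.7 CPM in the control libraries. Of this, S100a4 alone gave 116.4 and 117 CPM with c-FOS and 7.41 and 5.75 CPM in control. Pdgfrb had 2.71 and 2.65 CPM with c-FOS and was at 0 in both control libraries, while Fbln1 had 0.575 and 0.42 CPM with c-FOS and 3.28 and 3.26 CPM in control and fell. Of the 10 markers, 6 were tested, of which 4 rose, 1 fell and 1 did not pass. Pdgfrb entered the test through the c-FOS libraries alone. Dcn was not tested, with 4 and 3.5 counts with c-FOS and higher counts of 8.5 and 18.5 in control. Thy1 was at 0 in all 4 libraries, and Lum was at 0 and 0 CPM with c-FOS and 0.0168 and 0 CPM in control. The summed levels of 8 macrophage and leukocyte markers were 41.5 to 45 CPM with c-FOS and 17 to 18.9 CPM in control, with 3 tested, all of which rose, and Cd3e at 0 in all libraries. Of this sum, Csf1r gave 18.4 and 18.5 CPM with c-FOS and 0.387 and 0.224 CPM in control. Csf1r had 11.5 and 7 counts in control and entered the test through the c-FOS libraries. Cd68 gave 13.6 and 15.1 CPM with c-FOS and 11.8 and 10.3 CPM in control. Cd14 gave 9.33 and 11.3 CPM with c-FOS and 6.54 and 6.37 CPM in control. Ptprc, Adgre1, Itgam and Lyz2 were too low to be tested. Ptprc had 2.5 and 1.5 counts with c-FOS and 1 and 0 counts in control. The summed levels of 7 endothelial markers were 214.2 to 219 CPM with c-FOS and 117.1 to 117.5 CPM in control, with 4 tested, of which 3 rose and 1 fell, and Kdr at 0 in all libraries. Flt1 gave 113.1 and 109.5 CPM of this with c-FOS and 29.2 and 32.6 CPM in control, and Egfl7, which fell, had 2.86 and 2.34 CPM with c-FOS and 4.34 and 3.88 CPM in control. Pecam1 gave 101 and 100.3 CPM with c-FOS and 83.1 and 79.5 CPM in control. Cdh5 was not tested, with 1 and 0.5 counts with c-FOS and 0 and 0 counts in control. Vwf was also not tested, with 3 and 3.5 counts with c-FOS and 6 and 9.5 counts in control. The 6 hepatocyte and adipocyte markers together were at 0 CPM in both c-FOS libraries, where Fgf21 was higher, and at 0.0504 and 0.0639 CPM in the control libraries. The part of the fibroblast, leukocyte and endothelial markers in the FGF gene changes was not tested.

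The genes whose 4 library values lay nearest to each member, measured as the distance between log2 CPM values centred on each gene's mean, were Fam102a and Ctsh for Fgfr1, Prkch and Phospho1 for Fgfr2, and Tst and Sostdc1 for Fgfr3. For Fgf1 they were Phospho1 (distance 0.0165) and Fgfr2 itself (distance 0.0496), the only case in which a member was among the 2 nearest genes. For Fgfrl1 they were Aplp2 and Vmp1, for Fgfbp1 Rpl22 and Filip1l, and for Fgf21 Notum and Tlr6. Rows with a date as symbol were left out of this search. With 4 libraries in 2 groups, the distance mostly compares fold changes.

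The changes of the tested members were about the same size under every processing choice tried. The log2 fold change of Fgfr1 lay between 0.36 and 0.55, that of Fgfr2 between -1.44 and -1.26, that of Fgfr3 between -2.05 and -1.84 and that of Fgfrl1 between 0.65 and 0.80 over the 12 alternatives. That of Fgf1 lay between -1.40 and -1.23 and that of Fgfbp1 between -0.82 and -0.67. Fgf21 ranged more widely, from 2.02 without control replicate 2 to 2.67 without control replicate 1, and was not tested at a minimum count of 50.

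**Figure D5:**
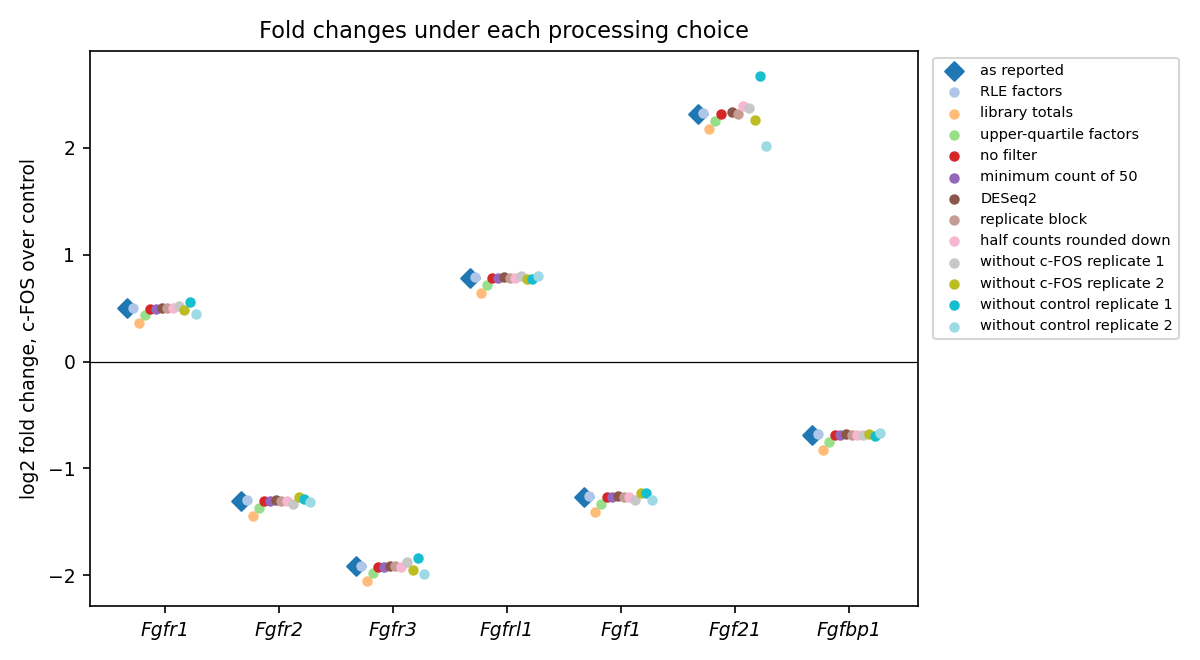
Log2 fold change of c-FOS over control for each tested member (horizontal axis) as reported (diamond) and under each alternative (points, named in the key). The points of a member lie on one side of 0; the widest range is that of Fgf21, from 2.02 to 2.67.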

How the data were processed

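The authors deposited 1 table of unnormalized expected counts per gene symbol and library, in steps of 0.5, with a gene model length in bases. Per the labels, total RNA from adherent cells was column-purified and made into Illumina TruSeq libraries. Reads went through TopHat and HOMER, per the series design text, on build mm9, with DESeq2 also named, per the submitters' processing notes; versions and strand handling: not given in the sources used here. Of 24909 rows, 2 repeated a symbol and the row with the higher total was kept; 26 rows with a date as symbol were not named. Values were rounded to whole numbers (0.5 upwards). edgeR 4.0.16 in R 4.3.3, with TMM factors and filterByExpr (minimum count 10, minimum total 15), compared c-FOS with control by its quasi-likelihood test (two-sided), and p-values were adjusted by Benjamini-Hochberg over 12791 genes at a threshold of 0.05; the procedure was tested on simulated data. CPM use the unrounded counts over the effective library size, SE come from the F statistic, and DESeq2 1.42.0 was 1 of the alternatives. The 2 libraries of each group differed beyond counting noise (chi-square over degrees of freedom 1.98 for c-FOS, 5.00 for control). Start regions are from RefSeq (GRCm38.p6), matched by symbol for 7 of 9 members; their coordinates are not those of mm9. Motifs other than TGANTCA were chosen after the windows were seen. In each list the 2 highest and 2 lowest called genes could be named. Klb, Fgfbp3, Atf4, Asns, Egr1, Etv1 and Spry4 were named outside that rule, after their values were seen. The members and lists were chosen with earlier results of these data known. Of the cell type marker genes, 1 is not reported here.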

Additional observations from a re-analysis of the deposited data

How the results depend on the processing

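The 7 member calls kept their direction and stayed past the threshold under RLE, library totals or upper-quartile factors, no filter, DESeq2, values ending in 0.5 rounded down, and without each library in turn; a minimum count of 50 left Fgf21 untested and 2 members higher. Over all genes, leaving out 1 library gave 3698 to 4520 higher and 3481 to 4358 lower calls. With library totals, 35.4% of the called genes were higher, against 50.3% with TMM, and the median log2 fold change over all genes was -0.14, against -0.01. Of 92 tested genes of the pathway lists, 56 were higher and 21 lower, beside 33.8% and 33.3% of all genes tested. With library totals these list counts were 45 and 27. Leaving out 1 library, the difference in receptor share (c-FOS minus control) was 30.3 to 31.7 percentage points for Fgfr1, -27.3 to -25.8 for Fgfr2 and -4.65 to -4.27 for Fgfr3. Without division by length that for Fgfr3 was -3.55, because the gene models differ in length. Nothing in the labels says that replicate numbers pair the libraries, and deviations of same-numbered libraries correlated at -0.07; with the replicate number as a block 4246 genes were higher and 4218 lower, and 3 members higher and 4 lower. A design of 2 against 2 libraries cannot go below p = 0.333 in an exact test, and Fgfr4 and Fgf2 were below what this depth can compare.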
